A study of Homo sapiens with 3 samples.

Results

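The genes described here are the well expressed members of the ZNF group of zinc finger genes in 3 PANC-1 lines, which carried the empty vector, wild-type JMJD3 or a mutant JMJD3. They were selected on their symbol, ZNF followed by a number and at most 1 letter, and on their level. The brightest probe set with 1 gene symbol had to have a mean log2 signal of 7.5 or more over the 3 arrays. Of 466 ZNF genes among 19775 genes on the array table, 162 passed. The mean level chose the members, so it is given as a description. The differences between arrays were not used to choose them.

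PANC-1 is an established human cell line from a pancreatic ductal adenocarcinoma. Per the labels, all 3 were stable lines with no further treatment. The control line held a blank vector, written MSCV-bank vector in the labels (MSCV is a retroviral vector), and the others expressed wild-type or mutant JMJD3. KDM6B encodes JMJD3, a demethylase that removes methyl groups from a repressive mark on histone H3. The labels give no mutation for the mutant, and they leave unsaid whether a line was a clone or a pool of cells. Total RNA of each line was labelled with biotin and read on 1 Affymetrix array. The 3 values of a gene are thus single readings without replicates. No test was made, and differences between lines cannot be told apart from differences between single cultures or arrays. In bulk RNA, fewer cells with a transcript and less of it per cell cannot be told apart either.

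ZNF genes encode proteins with classical zinc fingers, loops folded around a zinc ion by cysteines and histidines. Many carry a tandem array of fingers that reads a DNA sequence, joined to a KRAB domain that recruits the co-repressor TRIM28 and the histone methyltransferase SETDB1. Such KRAB zinc finger genes arose by tandem duplication, and large clusters of them lie on chromosome 19. Their best known targets are transposable elements. Clusters of ZNF genes are themselves packed in repressive chromatin in many cell types, and ZNF274 is known to bind near the ends of ZNF genes and recruit SETDB1. The symbol is a naming group and not a functional class, since ZNF207, ZNF622 and ZNF185, for example, act outside sequence-specific repression.

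The arrays had medians of 5.5 in control, 5.48 in the wild-type array and 5.49 in the mutant array on the log2 scale. The pooled median of 5.48 served as a floor for dim signals, and all 162 members were over it in every array. KRT18, a simple epithelial keratin (12.83 to 13.47 over the 3 arrays), KRT8 (10.67 to 11.97) and VIM, a filament gene of mesenchymal traits (13.27 to 13.34), were bright. The ductal keratin KRT19 was near the floor in control (5.55) and brighter with wild-type (8.0) and mutant JMJD3 (7.73). KRT7, also a keratin of ducts, was bright in all 3, at 9.66, 10.80 and 9.16. Of 7 markers of leukocytes, endothelium, acinar and islet cells with a probe set, PTPRC, CD3E, CDH5, CPA1, INS and GCG were under the floor in every array, and PECAM1 stood at 6.27 to 6.28. Of the 5 KDM6B probe sets, the one with the largest difference had signals of 5.53, 6.73 and 6.45. Sets of 3 values are in the order control, wild-type, mutant throughout. The brightest gave 7.60, 7.66 and 7.65. In 21.0% of all probe sets the 3 deposited values were identical, many of them dim. The same held for 2.28% of the genes at or over the members' threshold and for 9 of the 162 members (5.56%), ZNF207, ZNF3 and ZNF692 among them. Identical values do not show that transcript levels were equal: another probe set of ZNF207 read 8.02, 7.33 and 8.30.

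The mean log2 signals of the members ran from 7.51 to 11.52 with a median of 8.28. That was below the median of 9.29 for all 8171 genes at or over the same threshold. ZNF664 was the brightest, at 11.62 in control, 11.27 in the wild-type array and 11.66 in the mutant array. ZNF207, a spindle and kinetochore protein gene, followed with 11.16 in all 3. ZNF706 read 10.83, 10.97 and 10.97, and ZNF622, which encodes an assembly factor of the large ribosomal subunit, 10.78, 11.11 and 10.52. ZNF503, a repressor gene of development, stood at 10.72, 11.02 and 10.64.

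Some of the members next in brightness differed more between the arrays. ZNF121 read 11.10 in control, 10.11 in the wild-type array and 11.16 in the mutant array. ZNF638, known for silencing retroviral DNA with the HUSH complex, read 11.05, 10.12 and 10.68. ZNF217, an oncogene that is amplified in breast carcinoma, read 10.17, 9.67 and 10.53. In each of these 3 genes the wild-type JMJD3 array was the lowest. At the other end, ZNF276 (mean 7.53), ZNF213 (7.51) and ZNF280C (7.51) were just inside the threshold, and ZNF33B (7.49), ZNF174 (7.48) and ZNF527 (7.48) just outside.

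The wild-type JMJD3 array was the lowest of the 3 for 85 of the 162 members (52.5%), against 33.7% of the 8171 genes at or over the threshold. The mutant array was the highest for 66 (40.7%, against 32.3%), and control was the highest for 31 (19.1%, against 16.5%). The order wild-type under control under mutant held for 51 members (31.5%, against 21.2%). These shares describe 3 arrays, and each compares the same arrays with each other.

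**Figure D1:**
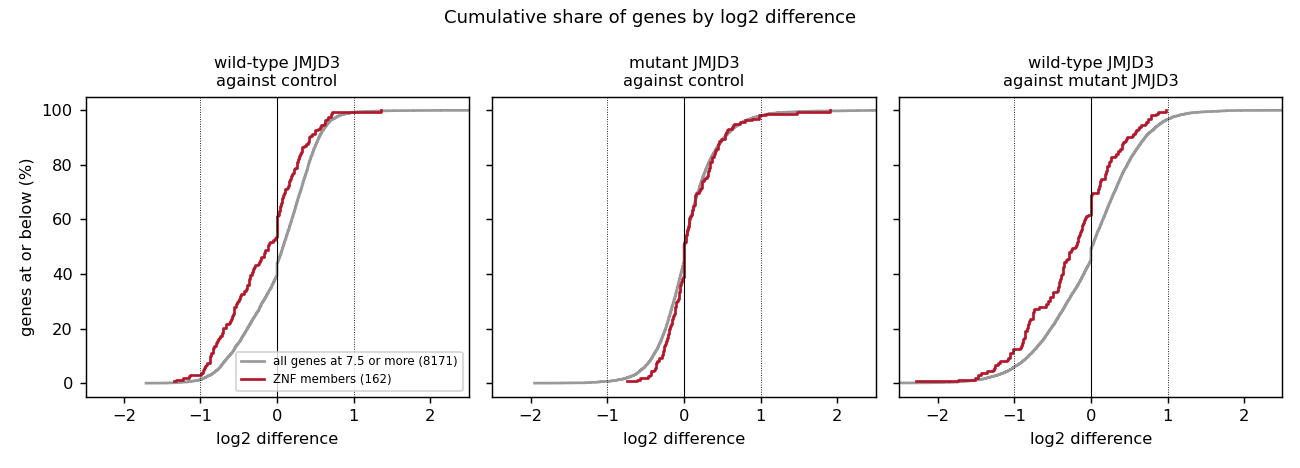
Cumulative share of genes (%) against the log2 difference in the 3 comparisons, for the 162 ZNF members (red) and all 8171 genes with a mean log2 of 7.5 or more (grey), with dotted lines at a 2-fold difference; a few grey genes lie beyond the axis. The red curve lies to the left of the grey one in the comparisons that involve the wild-type array, with medians of -0.12 against 0.08 and of -0.21 against 0.01, and close to it for mutant against control.

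Against the empty vector, wild-type JMJD3 went with lower signals for more members than with higher ones. Differences are given on the log2 scale. The median over the 162 members was -0.12, with 87 below control, 63 above and 12 equal, while it was 0.05 over 12499 genes measured in all comparisons and 0.08 over those at or over the threshold. At 1.5-fold, 40 members were lower (24.7%), where 9.08% of all 12697 measured genes and 11.2% of the genes at or over the threshold were. On the other side 9 were higher by 1.5-fold (5.56%, against 7.15% of measured genes). At 2-fold, 5 members were lower (3.09%, against 1.31% of measured genes) and 1 was higher (0.617%, against 0.953%). The 80 members between their own 25th and 75th percentile of brightness had a median of 0.01 and 18.8% lower by 1.5-fold, where all 2359 genes of that range had 0.13 and 10.3%. Over all 162 members the median stayed below 0 with the arrays scaled to one median (-0.10) and with quantile normalization (-0.09).

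ZNF721 was the furthest below control, at 11.27 in control, 9.92 in the wild-type array and 10.80 in the mutant array (2.55-fold lower with wild-type). That value comes from a probe set with shared sequence, and its unshared one read 8.51, 7.96 and 8.51. ZNF700 read 8.10 in control, 6.78 in the wild-type array and 7.99 in the mutant array, a 2.5-fold difference from control. The transcribed pseudogene ZNF271P read 8.12, 6.89 and 7.79 (2.35-fold lower), and ZNF107 8.39, 7.24 and 8.07 (2.22-fold lower). ZNF367 read 10.02, 8.88 and 10.36 (2.20-fold lower). In all 5 the wild-type array stood apart below both others. ZNF721, ZNF271P, ZNF107 and ZNF367 were read by shared probe sets, so related transcripts can be included in their signals.

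On the higher side ZNF467, a regulator of the choice between fat and bone lineages, stood alone past 2-fold. Its brightest probe set read 6.85 in control, 8.21 in the wild-type array and 8.33 in the mutant array, so that control was the array apart. The wild-type level was 2.57-fold over control and the mutant level 2.79-fold over it. Its other probe set read 5.51 in all 3 arrays, too near the floor of 5.48 to serve as a check. ZNF689 read 8.18, 8.90 and 8.11 (1.65-fold higher with wild-type), and its second probe set gave 7.79, 8.64 and 7.67. ZNF226 (8.34, 9.04 and 9.41), ZNF641 (8.99, 9.69 and 9.06) and ZNF593 (8.74, 9.40 and 9.0) were higher by 1.62-fold, 1.62-fold and 1.58-fold. In ZNF226 the other measured probe set went the other way, at 7.33, 6.59 and 7.55.

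Other probe sets of the same genes gave a partial check on the lower members. Of the 40 members lower by 1.5-fold, 19 had another measured probe set. Of these 28 other probe sets, 21 were also lower (75%), with a median difference of -0.66. For the 9 higher members, 4 of 8 other probe sets were higher as well, with a median of 0.06. Over all members the 121 other probe sets had a median of -0.12, with 70 below control and 37 above. The 48 members read by shared probe sets had a median of -0.10, and the 114 read by unshared ones -0.14.

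**Figure D2:**
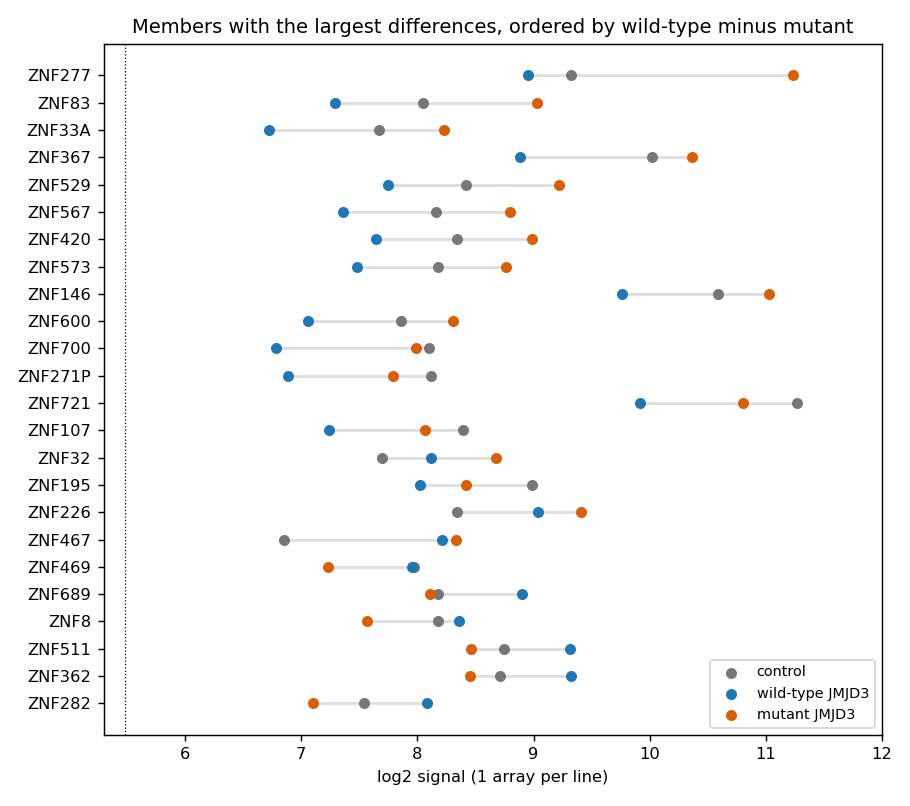
Log2 signal in control, wild-type JMJD3 and mutant JMJD3 (1 array each, points) for 24 members, ordered by wild-type minus mutant from the most negative at the top. They were picked from the members with large differences in any comparison, and some with larger ones, such as ZNF184, are not shown. The dotted line marks the floor of 5.48. The wild-type point is the lowest for ZNF277 to ZNF107 and for ZNF195, and the control point for ZNF32, ZNF226 and ZNF467.

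With mutant JMJD3 the members differed little from control. Their median difference was 0.00, with 79 above, 63 below and 20 equal, and it was 0.01 with the arrays scaled and -0.04 with quantile normalization. At 1.5-fold 11 were higher (6.79%, against 9.51% of 12707 measured genes) and 2 lower (1.23%, against 3.38%). At 2-fold 3 were higher (1.85%, against 2.98%), and none was lower where 0.535% of measured genes were. The shares of higher members were near the background.

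ZNF277, a reported partner of the Polycomb protein BMI1, had the largest difference of any member. It read 9.32 in control, 8.95 in the wild-type array and 11.23 in the mutant array, which is 3.76-fold over control. A second probe set went the same way (6.96, 6.49 and 8.83), while another did not (7.04, 7.44 and 6.91). ZNF467 (2.79-fold) and ZNF226 (2.10-fold) also passed 2-fold. ZNF83 read 8.05, 7.29 and 9.03 and ZNF32 7.70, 8.12 and 8.68, both 1.97-fold over control. The second probe set of ZNF83 read 8.06, 6.38 and 7.35, so it was low with wild-type as well but not high with the mutant.

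The lowest members with mutant JMJD3 were under 2-fold. ZNF469, a gene of corneal and connective tissue disease, read 7.97 in control, 7.95 in the wild-type array and 7.23 in the mutant array (1.67-fold lower). ZNF8 read 8.18, 8.36 and 7.57 (1.53-fold lower). ZNF195 was low in both JMJD3 arrays, at 8.99, 8.02 and 8.42. ZNF282 read 7.54, 8.08 and 7.10, with control between the JMJD3 arrays.

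Setting the JMJD3 arrays against each other gave the most 2-fold differences among members, all in one direction. The median of wild-type minus mutant was -0.21 over the members, with 100 below 0, 50 above and 12 equal, and 0.01 over the 8171 genes at or over the threshold. At 2-fold 20 members were lower with wild-type (12.3%), against 6.2% of 12829 measured genes and 6.12% of those at or over the threshold. None was higher at 2-fold, where 2.61% of measured genes and 3.39% of those at or over the threshold were. At 1.5-fold 46 were lower (28.4%, against 15.9%) and 13 higher (8.02%, against 11.3%). The median was -0.20 with the arrays scaled and -0.13 with quantile normalization, which also brought 1 member past 2-fold on the higher side.

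ZNF277 had a 4.86-fold lower signal in the wild-type than in the mutant array, and ZNF83 a 3.34-fold lower one. ZNF33A read 7.67 in control, 6.72 with wild-type and 8.23 with mutant, a 2.85-fold difference between the JMJD3 arrays. Its other 2 probe sets, near the floor at 5.60 to 5.79, moved by at most 0.18 and the opposite way. ZNF33B, its close relative just outside the threshold, read 7.40, 6.80 and 8.28 from a shared probe set. For ZNF367 the wild-type array was 2.79-fold below the mutant one. Of the other largest differences, ZNF529 (2.77-fold), ZNF567 (2.71-fold), ZNF420 (2.55-fold), ZNF573 (2.43-fold) and ZNF146 (2.41-fold) are neighbours on chromosome 19, and ZNF600 (2.38-fold) lies in another group there. ZNF184, on chromosome 6, tied with ZNF600 for the tenth place, at 8.01, 7.15 and 8.40 (2.38-fold).

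Highest with wild-type against mutant were ZNF282 (1.97-fold), ZNF362 (8.71, 9.32 and 8.45, 1.83-fold), ZNF511 (8.75, 9.31 and 8.46, 1.80-fold), ZNF689 (1.73-fold) and ZNF8 (1.73-fold). In all 5 the wild-type array was the highest and the mutant the lowest. Of 8 other measured probe sets of the 13 members higher by 1.5-fold, 7 were higher too, though by a median of only 0.16. Of 34 for the 46 lower members, 26 were lower (76.5%), by a median of -0.63. Over all members the 123 other probe sets had a median of -0.16, with 74 below 0 and 37 above.

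Position in the genome was not part of the rule. Chromosome 19 held 59 of the 162 members (36.4%) but 5.48% of all genes at or over the threshold. The members there had a median of -0.30 for wild-type against control, 0.14 for mutant against control and -0.38 for wild-type against mutant. The 103 members elsewhere had medians of -0.02, 0.00 and -0.14. The 389 other well expressed genes of chromosome 19 lay on the other side, with a median of 0.37 for wild-type against control and 0.36 for wild-type against mutant, and 359 of the 389 were above control. That was the highest median of any chromosome with at least 100 such genes. The lowest was on chromosome 13 (-0.24), followed by chromosomes 4 (-0.09) and 5 (-0.07), while chromosomes 22 (0.28), 16 (0.24), 11 (0.23) and 17 (0.22) were next highest. On chromosomes 2, 3, 7, 9, 10 and 15 it was 0.00. The median of the members on chromosome 19 had the opposite sign to that of the other genes there, though 20 of the 59 were above control. So had the median of the 8 members on chromosome 12 (-0.28, beside 0.07), where 3 were above control. The medians of the 11 members on chromosome 16 (0.20) and the 9 on chromosome 1 (0.07, beside 0.10) had the same sign as those of the other genes. The 14 members on chromosome 7 had -0.045, beside 0.00. The part of chromosome in the members' values was not tested.

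The members were also described by their place in the gene order. Runs of at least 3 members with at most 10 other protein-coding genes between neighbours took in 79 of the 162 members in 13 runs. The spacing was chosen after values were seen. Genes in a run share ancestry and partly sequence, so they are not independent observations. The run from ZNF146 to ZNF573 on chromosome 19 had the lowest median for wild-type against mutant, -1.28 over 7 members, all 7 below 0. It was -0.70 for wild-type against control and 0.63 for mutant against control, so the difference came from both sides.

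In that run ZNF146, whose protein consists of little but fingers, read 10.59 in control, 9.76 in the wild-type array and 11.03 in the mutant array. Its second probe set gave 7.64, 6.68 and 7.99. ZNF529 read 8.42, 7.75 and 9.22, ZNF567 8.16, 7.36 and 8.80, and ZNF420 8.34, 7.64 and 8.99. In each of them control lay between the JMJD3 arrays. ZNF573 read 8.18, 7.48 and 8.76, ZNF585A 7.37, 7.25 and 8.0, and ZNF875 7.59, 7.59 and 7.73. ZNF875 was thus the member of the run with the smallest difference, at -0.14. The second measured probe set of ZNF420 (6.28, 5.61 and 7.04) followed the first. That of ZNF567, under the floor in 2 arrays, read 5.37, 5.69 and 5.45 and did not.

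The largest run without a mixed sign also lay on chromosome 19. From ZNF614 to ZNF331 it held 11 members, and all 11 had their lowest signal in the wild-type array. Its medians were -0.56 against control and -0.58 against mutant, and mutant against control gave 0.11. ZNF83, ZNF614 (7.57, 7.06 and 8.12) and ZNF600 (7.86, 7.06 and 8.31) had the largest differences between the JMJD3 arrays. ZNF331, a gene with imprinted expression, had a small one (8.98, 8.74 and 9.09). ZNF160 read 10.06, 9.22 and 9.63, lower than control in both JMJD3 arrays. Of other well expressed genes inside this run there was 1, PPP2R1A, a phosphatase scaffold subunit, at 0.57 for wild-type against control. The run from ZNF627 to ZNF791 had all 5 members below control with wild-type, with a median of -0.70 against control and -0.82 against mutant.

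Not every chromosome 19 group behaved so. The run toward the end of the long arm, from ZNF805 to ZNF324, held 15 members with medians of 0.08, 0.03 and 0.00. Within it ZNF550 (8.45, 7.89 and 8.81) and ZNF805 (7.71, 7.19 and 8.05) were low with wild-type, ZNF584 (8.22, 8.53 and 8.0) was high, and ZNF274 read 8.96, 8.98 and 8.73. The nearby group from ZNF579 to ZNF580 had 4 members, all above control with wild-type, with a median of 0.53 for either JMJD3 array against control. ZNF581 (7.99, 8.62 and 8.88) and ZNF580 (7.53, 8.16 and 8.26) were higher than control in both.

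**Figure D3:**
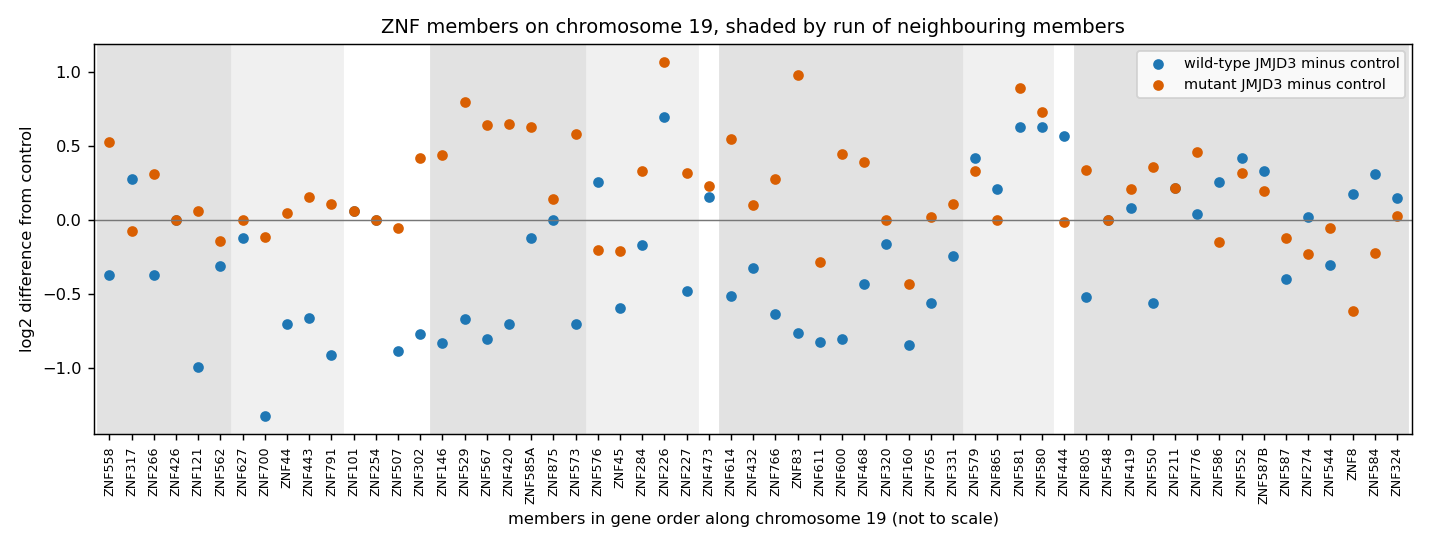
Log2 difference from control for the 59 members on chromosome 19 in gene order (x axis, not to scale), with wild-type JMJD3 in blue and mutant JMJD3 in orange, 1 array each. Grey bands mark runs of neighbouring members. In the bands of ZNF627 to ZNF791, ZNF146 to ZNF573 and ZNF614 to ZNF331 the blue points lie at or below 0.

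On other chromosomes runs lay on either side. ZNF605, ZNF26, ZNF84 and ZNF140 adjoin each other on chromosome 12, and all 4 had their lowest signal in the wild-type array, with medians of -0.60 against control and -0.61 against mutant. ZNF605 read 8.65, 7.93 and 8.95, and ZNF84 8.48, 7.74 and 8.61. On chromosome 18, ZNF397, ZNF271P and ZNF24 were all lower with wild-type, with a median of -0.61 against control and -0.90 against mutant.

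The opposite was seen on chromosomes 7 and 16. The run from ZNF398 to ZNF467 on chromosome 7 had 7 members. Its medians were 0.49 against control, with 6 above 0, and 0.33 against mutant, with 5 above 0. Without ZNF467, which does not adjoin the others, the 6 adjoining genes from ZNF398 to ZNF746 gave 0.33 and 0.54, with 5 of 6 above 0 in each. ZNF777 read 7.89, 8.54 and 7.80, and ZNF746, a parkin substrate that represses PPARGC1A, 8.63, 9.12 and 8.38. ZNF282 belongs to this group. On chromosome 16 the 5 members from ZNF48 to ZNF629 were all above control and mutant with wild-type, with medians of 0.29 and 0.24. The 5 other well expressed genes inside that run, such as RNF40, a histone ubiquitin ligase, were all above 0 as well, with medians of 0.28 and 0.27.

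**Figure D4:**
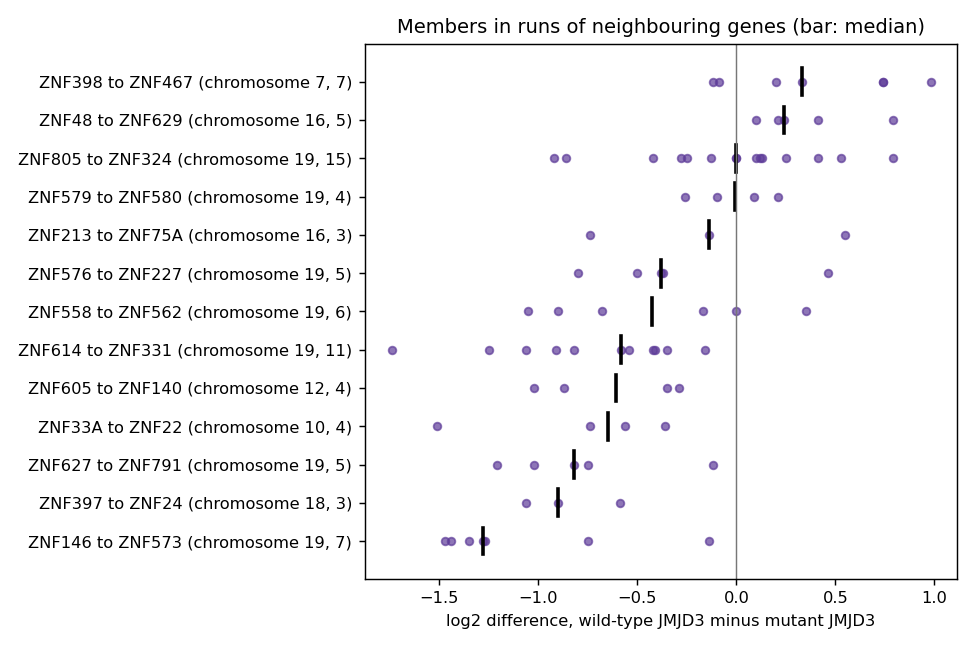
Log2 difference of wild-type JMJD3 minus mutant JMJD3 for the members (points) of 13 runs of neighbouring genes, with the median of each run as a black bar. Labels give the chromosome and the number of members. Medians run from -1.28 for ZNF146 to ZNF573 to 0.33 for ZNF398 to ZNF467.

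Some short sequence words were more frequent in the promoters of the members than in those of other genes. A RefSeq window (GRCh38.p14) of 250 bases before to 50 after the first listed gene start was matched for 143 of 162 members. In it the word CCGGAAG, the core of ETS factor sites, occurred on either strand in 61 of 143 members (42.7%), against 14.2% of 15842 protein-coding genes and 21.6% of 6747 other well expressed genes. The word CTACANNTC, part of the element known to be bound by ZNF143, occurred in 19 (13.3%, against 4.54% and 5.39%). The TATA box letters TATAAA were found in 2 members (1.4%, against 9.63% and 4.88%), and the GC box letters GGGCGG in 69.2% (against 58.5% of protein-coding genes and 72.8% of the other well expressed genes). These words are from 33 searched, some of them chosen after these promoters were seen, and overlapping words were among them. Their shares are therefore descriptions of these promoters and were not tested. A match describes letters and does not show a bound site.

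Members with and without each word were set side by side. For wild-type against mutant the median was -0.25 in the 61 members with CCGGAAG and -0.29 in the 82 without. For wild-type against control these were 0.00 and -0.22. With CTACANNTC the 19 members had medians of -0.24 for wild-type against control and -0.37 for wild-type against mutant, and the 124 without had -0.12 and -0.21. ZNF143 itself read 8.97 in control, 8.64 in the wild-type array and 9.01 in the mutant array.

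Promoter windows of 5 members follow, chosen because ZNF277 had the largest difference and holds each word, while the others were picked because they hold CTACANNTC and lie in a chromosome 19 or 12 run that was low with wild-type JMJD3. They do not stand for their runs: ZNF529, ZNF567, ZNF585A, ZNF875 and ZNF84 of the same runs lack that word in this window. Other members that hold it in such runs, among them ZNF146, ZNF26 and ZNF331, are not printed. Each printed window is written 5′ to 3′ on the strand of its gene, with positions on GRCh38.p14. Capitals mark every match to CCGGAAG or CTACANNTC on either strand, so that GAATTGTAG is a match read on the opposite strand. ZNF420, ZNF605 and ZNF140 each hold the second word 2 times.
ZNF277, chr7:112206445-112206744 (+ strand): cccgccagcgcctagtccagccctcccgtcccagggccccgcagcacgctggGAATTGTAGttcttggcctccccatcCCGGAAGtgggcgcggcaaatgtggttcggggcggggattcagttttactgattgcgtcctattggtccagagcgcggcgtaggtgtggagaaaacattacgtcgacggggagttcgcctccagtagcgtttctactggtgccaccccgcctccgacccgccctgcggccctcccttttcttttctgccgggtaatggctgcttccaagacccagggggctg
ZNF420, chr19:37078183-37078482 (+ strand): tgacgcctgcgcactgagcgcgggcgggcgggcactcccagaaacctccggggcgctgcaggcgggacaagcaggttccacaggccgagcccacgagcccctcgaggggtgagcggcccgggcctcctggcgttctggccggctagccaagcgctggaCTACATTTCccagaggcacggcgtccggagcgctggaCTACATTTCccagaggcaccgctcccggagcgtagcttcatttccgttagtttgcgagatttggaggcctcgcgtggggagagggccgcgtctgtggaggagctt
ZNF573, chr19:37779537-37779836 (- strand): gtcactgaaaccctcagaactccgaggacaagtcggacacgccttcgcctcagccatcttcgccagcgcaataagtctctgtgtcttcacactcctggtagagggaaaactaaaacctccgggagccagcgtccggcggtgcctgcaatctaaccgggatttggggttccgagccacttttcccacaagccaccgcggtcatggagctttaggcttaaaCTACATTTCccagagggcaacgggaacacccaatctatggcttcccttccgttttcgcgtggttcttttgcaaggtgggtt
ZNF605, chr12:132956257-132956556 (- strand): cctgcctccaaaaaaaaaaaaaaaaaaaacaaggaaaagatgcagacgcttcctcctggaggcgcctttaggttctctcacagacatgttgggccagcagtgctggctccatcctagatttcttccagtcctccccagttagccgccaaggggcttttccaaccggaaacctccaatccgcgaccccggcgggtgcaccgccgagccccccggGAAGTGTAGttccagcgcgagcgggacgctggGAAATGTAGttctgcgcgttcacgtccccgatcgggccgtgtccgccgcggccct
ZNF140, chr12:133080673-133080972 (+ strand): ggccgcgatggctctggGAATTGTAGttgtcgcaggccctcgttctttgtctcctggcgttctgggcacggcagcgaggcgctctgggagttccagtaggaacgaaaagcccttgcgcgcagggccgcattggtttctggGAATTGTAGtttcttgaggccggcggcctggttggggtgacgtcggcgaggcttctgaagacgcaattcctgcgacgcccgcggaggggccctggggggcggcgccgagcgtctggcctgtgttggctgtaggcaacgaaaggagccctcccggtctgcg

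The members also differed by the base composition of these windows. Of members with a promoter GC content up to 61.7%, 18 of 55 were lower by 1.5-fold in the wild-type array than in the control array (32.7%), and their median was -0.31. Between 61.7% and 69.7% it was 15 of 60 (25%, median -0.21), and above 69.7% 3 of 28 (10.7%, median 0.09). Over other well expressed genes the same classes gave 12.4%, 11.4% and 10.1%, with medians of 0.05, 0.08 and 0.10. The spread by composition was thus wider among members than among other genes. The 9 members higher by 1.5-fold included 8 with a window, whose median GC content was 71.7%. No test of this was run.

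Genes outside the symbol rule give a frame. The 304 ZNF genes under the threshold included 152 measured in all 3 comparisons, with medians of -0.14, 0.07 and -0.29 for wild-type against control, mutant against control and wild-type against mutant. Those passed a floor in each comparison and are not all dim ZNF genes. Among other zinc finger families at or over the threshold, 23 ZBTB genes had medians of -0.47, 0.08 and -0.45, and 16 KLF and SP genes -0.03, 0.45 and -0.67. The 4 ZSCAN genes had 0.08, 0.18 and -0.16, and 3 ZKSCAN genes -0.35, 0.31 and -0.77. The 5 ZFP genes gave -0.25, 0.76 and -0.23, and the 4 PRDM genes -0.29, -0.15 and -0.15. A negative median for wild-type against control was therefore not particular to genes named ZNF.

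Of 18 genes of the KRAB co-repressor machinery, all were measured. At 1.5-fold the wild-type array had 3 of them under control and 0 over it, and the median was -0.06. Of all measured genes 9.08% were lower by as much, and of the genes at or over the threshold 11.2%. The share of 3 in 18 lies above both, but it rests on few genes and was not tested. On the higher side the background was 7.15% of measured genes. The 3 lower genes were CBX3, a heterochromatin protein gene (12.88, 11.91 and 13.19), ATF7IP, a partner of SETDB1 (10.16, 9.24 and 9.80), and ATRX, a chromatin remodeller gene (10.41, 9.50 and 10.30). TRIM28 read 9.60, 10.18 and 9.51, so it was highest with wild-type and just short of 1.5-fold over control (1.49-fold). SETDB1 read 7.92 in all 3 arrays. Between the JMJD3 arrays the list's median was 0.00. At 1.5-fold 3 were lower with wild-type and 2 higher, where 15.9% and 11.3% of measured genes were. At 2-fold it was 1 on each side (background 6.2% lower and 2.61% higher). CBX3 was 2.43-fold lower with wild-type. CHD3, a helicase of the NuRD complex, was 2.07-fold higher with wild-type (8.89, 9.09 and 8.04). For mutant against control the list's median was -0.09, with 0 higher by 1.5-fold (background 9.51%) and 1, CHD3, lower (background 3.38%).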

How the data were processed

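The deposited table held 1 log2 signal per probe set and array. MAS5, an Affymetrix method for turning probes into signals, is named in the submitters' processing notes. How arrays were normalized to each other is not stated there or in the labels. Of 54613 probe sets, 41091 had 1 gene symbol in the platform annotation, 1801 had several and 11721 were not listed. Those with several or none were not used. All 162 member symbols matched the RefSeq gene table (GRCh38.p14), which also gave chromosomes and gene order; 2 members are transcribed pseudogenes.

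Each of 19775 genes was read from its probe set of highest mean. Values under the pooled median (log2 5.48) were set to it for differences, and a gene was measured where either array was over it. Differences of log2 signals were counted at 2-fold and 1.5-fold. Identifiers ending in _s_at or _x_at mark shared sequence. No KRAB, SCAN or finger count was assigned, because no protein sequences were used.

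Members, gene lists and named genes (members past 2-fold up to 10 a side or the 5 largest, the 10 brightest, members at the threshold, runs, up to 4 per list) were chosen with earlier results of these data known. Words and run spacing were chosen after values were seen. Gene choice and counting at 2-fold were tested on simulated data, only for wild-type against control and with steps well past 2-fold in bright genes. Counting at 1.5-fold was not tested in this way. The number of arrays, 1 per line, limits the precision. Tables were made with pandas 2.3.3 and numpy 2.4.6 in Python 3.11.15, and plots with matplotlib 3.10.9.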

Additional observations from a re-analysis of the deposited data

How the results depend on the processing

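Each of the 3 medians stayed within 0.1 of its reported value under quantile normalization, under median scaling of the arrays, with the floor at the 60th or 40th percentile or replaced by an offset, with the median of all probe sets of a gene, without shared probe sets, and with members taken from 7.0 or 8.0. Small counts at 2-fold moved more. For wild-type JMJD3 against control, the 1 higher member was 0 with the median over probe sets, without shared probe sets and with members from 8.0, and 9 at 1.5-fold. The 5 lower members were 3 with the offset, 1 without shared probe sets, 8 with members from 7.0, 2 with members from 8.0 and 40 at 1.5-fold. For mutant JMJD3 against control, the 3 higher members were 1 with the median over probe sets and 1 without shared probe sets, and 11 at 1.5-fold, and the 0 lower members were 2 at 1.5-fold. For wild-type against mutant, the 0 higher members were 1 with quantile normalization and 13 at 1.5-fold, and the 20 lower members were 31 with members from 7.0 and 46 at 1.5-fold. ZNF33A went from -1.51 to 0.05 between the JMJD3 arrays with the median over its probe sets, which gives weight to probe sets near the floor. Under that setting ZNF721 (-0.95) and ZNF467 (0.68) against control with wild-type, ZNF467 (0.74) and ZNF226 (0.65) against control with mutant, and ZNF567 (-0.62) between the JMJD3 arrays were under 2-fold. So were, without shared probe sets, ZNF721 (-0.55) for wild-type against control and ZNF83 (-0.97) for wild-type against mutant, and, with the offset, ZNF107 (-0.96) and ZNF271P (-0.98) for wild-type against control and ZNF700 (-0.95) for wild-type against mutant. Leaving out a replicate was not possible with 1 array per line.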
